A study of Homo sapiens with 4 samples.

Results

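The mRNAs of 10 genes were followed through an immunoprecipitation of the RNA-binding protein TIA1: the chemokines CXCL8, CXCL1 and CXCL2, the cytokines IL6, IL1A, IL1B, TNF and CSF2, the prostaglandin synthase PTGS2 and the angiogenic factor VEGFA. They are textbook mRNAs with AU-rich elements in their 3′ untranslated regions (UTRs) and were chosen by symbol, as all array probes other than control spots whose listed transcript belongs to one of these genes. The 10 genes had 14 probes among the 50599 probes of the array, which cover 24151 named genes. All 4 samples came from KYSE180, an established line of esophageal squamous cell carcinoma, with no agent, genotype change or time course given in the labels. TIA1 RIP, with 2 samples, is RNA recovered with an anti-TIA1 antibody from cytoplasmic lysates. Total RNA, with 2 samples, is the input; the sources used here do not state whether it was taken from cytoplasm or from whole cells. RNA from the IgG control precipitation was not analysed here, so RNA that sticks to beads or antibody cannot be told apart from RNA held by TIA1. Nothing states that the 2 samples of a group came from separate cultures, and the p-values measure only the spread between these arrays.

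TIA1 is an RNA-binding protein with RNA recognition motifs that prefers U-rich RNA, shuttles between nucleus and cytoplasm and gathers in stress granules. AU-rich elements are stretches of overlapping AUUUA pentamers that mark short-lived mRNAs, and TIA1 is known to repress the translation of several such mRNAs, TNF and PTGS2 among them. In squamous epithelium the chemokines, IL1A and IL1B, IL6 and CSF2 are typical products of the NF-kB response, whereas VEGFA is also driven by hypoxia.

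The sequence that unites the 10 genes is shown as the 30 bases of each 3′ UTR that hold the densest AU-rich stretch, read from GENCODE transcripts on GRCh37, 5′ to 3′ on the transcript strand. Capitals mark every AUUUA pentamer, overlapping ones included.
CXCL8, chr4:74608828-74608857, plus strand: ccuAUUUAuuAUUUAuguAUUUAUUUAagc
CXCL1, chr4:74736390-74736419, plus strand: aagucuucuAUUUAUUUAUUUAuucauuag
CXCL2, chr4:74963303-74963332, minus strand: cuucuAUUUAUUUAUUUAUUUAUUUAuuug
IL6, chr7:22771360-22771389, plus strand: aguuaAUUUAuguaagucauAUUUAuauuu
IL1A, chr2:113532001-113532030, minus strand: uAUUUAuauauguAUUUAuaaauauAUUUA
IL1B, chr2:113587572-113587601, minus strand: cgcuucccuAUUUAUUUAUUUAuuuguuug
TNF, chr6:31545783-31545812, plus strand: auuAUUUAUUUAuuAUUUAUUUAUUUAcag
CSF2, chr5:131411769-131411798, plus strand: aaaauAUUUAUUUAUUUAUUUAUUUAaguu
PTGS2, chr1:186643449-186643478, minus strand: aaugaucauAUUUAUUUAUUUAuaugaacc
VEGFA, chr6:43753608-43753637, plus strand: guuaauAUUUAauuucaacuAUUUAugaga

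The stretches differed in form. CXCL2 and CSF2 each carried 5 overlapping pentamers in 1 run, and TNF carried 5 in 2 runs. CXCL1, IL1B and PTGS2 carried 3 overlapping pentamers. In IL6, IL1A and VEGFA the pentamers of the window were separate from each other. The windows of CXCL1 and CXCL2 began 137 and 141 bases into the 3′ UTR and that of PTGS2 began at base 7, whereas that of VEGFA began at base 1309 of 1925.

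Over the whole 3′ UTR, AUUUA was counted 22 times in PTGS2, 10 times in CXCL2 and in VEGFA, 9 times in CXCL8 and in TNF, 8 times in CSF2, 6 times in CXCL1, IL6 and IL1B, and 5 times in IL1A. Per kb of 3′ UTR the density ran from 4.38 in IL1A to 25.2 in CSF2, and the median over the 11500 genes kept for analysis that have an annotated 3′ UTR was 1.55. IL1A had the lowest density of the 10, and 12.9% of the 3′ UTRs of 18910 annotated genes had a higher one. For CSF2 that share was 0.0846%. The nonamer UUAUUUAUU, a longer form of the element, was found 5 times in CXCL2 and in TNF, 3 times in CXCL1 and in CSF2, 2 times in IL1B, once each in CXCL8, PTGS2 and VEGFA, and not in IL6 or IL1A. It was present in 8.83% of the 11500 genes, and 3 or more copies were present in 0.687%. Both motifs were searched on the transcript strand only with overlapping matches counted, and every nonamer holds an AUUUA, so the counts are not separate features.

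**Figure D1:**
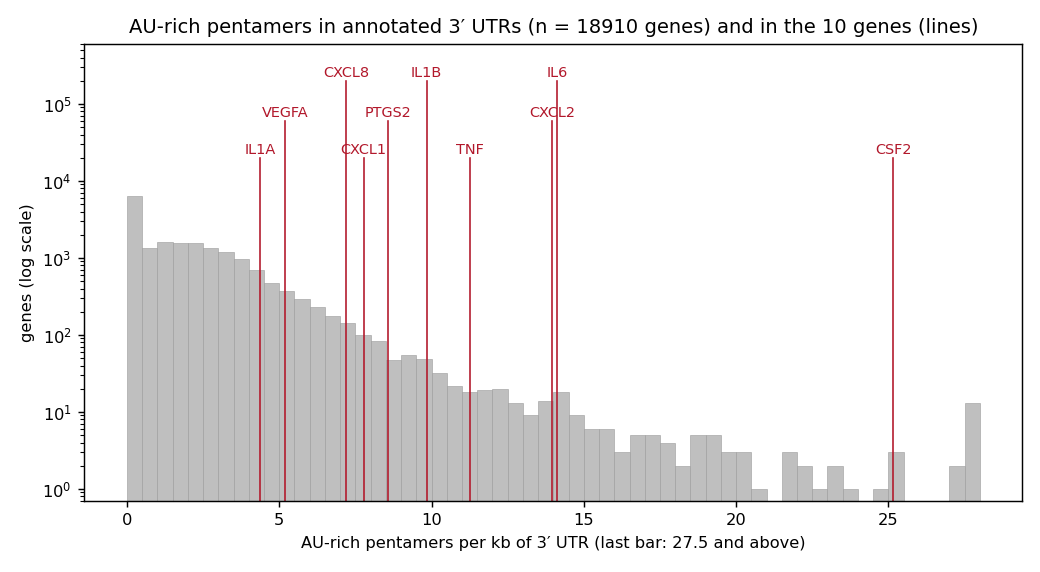
AUUUA pentamers per kb of annotated 3′ UTR on the x axis against the number of genes on a log scale, for 18910 genes (grey bars), with the 10 genes as lines. All 10 lines lie to the right of the bulk, from IL1A at 4.38 to CSF2 at 25.2.

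The arrays differed in brightness before any gene was compared. Each was a single-colour Agilent array of 58717 spots other than controls, and the precision is limited by their number. The 75th percentile of the processed signal was 1514 and 1271 on TIA1 RIP 1 and 2, 714 on total RNA 1 and 69.9 on total RNA 2. The share of spots well above background, the scanner software's test of a spot against its local background, was 45.8%, 48.4% and 47.6% on the first 3 of these arrays and 32.2% on total RNA 2. Signals were therefore compared as log2 processed signal minus the 75th percentile of the same array (scaled log2 signal). On that scale the lowest signal well above background was -3.52 and -3.08 on TIA1 RIP 1 and 2, -3.59 on total RNA 1 and -1.12 on total RNA 2, so a dim mRNA has a bound on total RNA 2 at a level where the other arrays still measured it. The SD of the log2 difference between the arrays of a group, over genes, was 0.895 for TIA1 RIP and 2.00 for total RNA.

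Of the 14 probes, 5 were detected on all 4 arrays, those of CXCL1 (2 probes), VEGFA (2 probes) and CXCL2 (1 of 2 probes), against 26.5% of all probes. A probe counted as detected when at least 0.5 of its spots were well above background, and it was kept when both TIA1 RIP arrays or both total RNA arrays detected it. CXCL8, CXCL1, CXCL2, IL6, PTGS2 and VEGFA were kept and tested among 13040 genes. IL1A, IL1B, CSF2 and TNF were not kept, and their values are given as a description. A gene could enter the test through the TIA1 RIP arrays alone, which is how CXCL8, IL6 and PTGS2 did. The CXCL2 probe A_23_P315364 was kept in the same way and is averaged into the CXCL2 value. The 6 tested genes are therefore not a neutral sample of the 10.

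**Figure D2:**
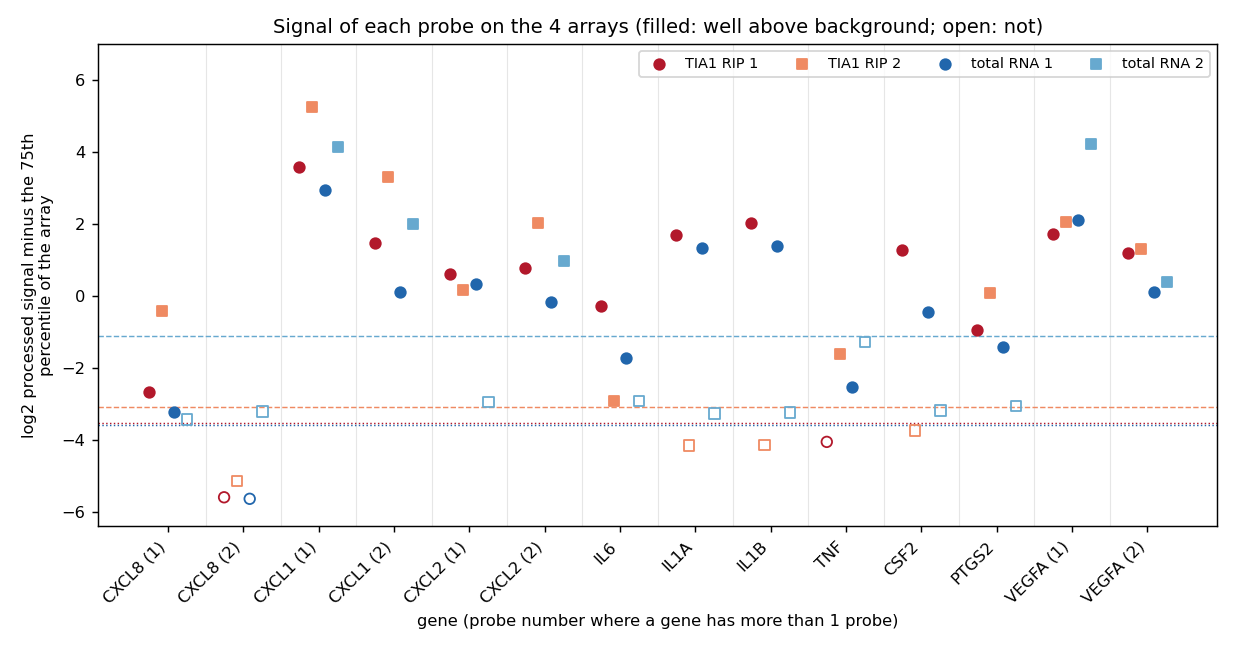
Scaled log2 signal (y axis) of each of the 14 probes (x axis) on the 4 arrays; filled points are well above background and open points are not, and the horizontal lines are the lowest signals well above background on each array in its colour (dotted for arrays numbered 1, dashed for arrays numbered 2). CXCL1 and VEGFA are filled on all arrays, while IL1A, IL1B and CSF2 are filled only on the arrays numbered 1.

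Of the 3 chemokines, CXCL1 was measured on all 4 arrays by both of its probes, CXCL2 by 1 of 2 probes, and CXCL8 was not well above background on total RNA 2. CXCL8, CXCL1 and CXCL2 lie in a cluster on chromosome 4 (GRCh37), with CXCL8 at 74606236 to 74609433, CXCL1 at 74735110 to 74737025 and CXCL2, on the opposite strand, at 74962757 to 74964913. All 3 encode ligands that draw neutrophils, mainly through the receptor CXCR2. CXCL1 and CXCL2 are close paralogs, and whether a probe of one also binds the mRNA of the other was not tested. The kept CXCL8 probe gave processed signals of 238 and 961 in TIA1 RIP 1 and 2, 76.7 in total RNA 1 and 6.51 in total RNA 2, where it was not well above background. Its scaled log2 signals were -2.67 and -0.40 in TIA1 RIP and -3.22 and -3.42 in total RNA. The last of these is only a bound, and since the lowest signal well above background on total RNA 2 lies above the value of TIA1 RIP 1, whether the groups overlapped is not known. The second CXCL8 probe, listed under another transcript, was not well above background on any array.

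CXCL1 was measured by 2 probes on all 4 arrays, which makes it the chemokine with the fewest bounds. Probe A_23_P7144 gave processed signals of 18129 and 48156 in TIA1 RIP 1 and 2 and of 5471 and 1232 in total RNA 1 and 2. Probe A_33_P3330264 gave 4208 and 12517 in TIA1 RIP and 771 and 281 in total RNA. With both probes averaged, the scaled log2 signals of CXCL1 were 2.53 and 4.27 in TIA1 RIP and 1.52 and 3.07 in total RNA. TIA1 RIP 2 was the highest of the arrays, but TIA1 RIP 1 lay below total RNA 2, and the groups overlapped on this scale. In both groups the array numbered 2 was the higher one, by 1.74 in TIA1 RIP and by 1.55 in total RNA. In total RNA the median over the probes detected on either array also lay on that side. It was -0.93 for array 1 minus array 2, with dim signals at the lowest one well above background.

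For CXCL2 the probes differed. Probe A_24_P257416 was detected on all arrays and gave scaled log2 signals of 0.78 and 2.03 in TIA1 RIP and -0.17 and 0.97 in total RNA, an order of arrays that CXCL1 shared. Probe A_23_P315364 gave 0.61 and 0.18 in TIA1 RIP and 0.33 in total RNA 1, and was not well above background in total RNA 2. The mean of both probes was 0.69 and 1.10 in TIA1 RIP and 0.08 and -0.99 in total RNA. The lowest value rests on the probe that was not detected there, and on each probe alone the lower TIA1 RIP value lay below a total RNA value.

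The limma fit found a log2 ratio (TIA1 RIP over total RNA) of 1.78 ± 0.98 (SE, 2 arrays against 2) for CXCL8, with an adjusted p of 0.776. The limma ratio was 1.10 ± 0.98 for CXCL1 (adjusted p = 0.794) and 1.35 ± 0.82 for CXCL2 (adjusted p = 0.776). Leaving out 1 array, the ratio ran from 0.65 to 2.92 for CXCL8, 0.23 to 1.97 for CXCL1 and 0.82 to 1.88 for CXCL2. None of the 3 differences was larger than the spread between arrays allows to call. The CXCL8 ratio depended on the treatment of its dim values: it was 0.47 after normexp background correction, 0.63 with a floor at the lowest signal well above background and 0.42 without the detection filter, where the undetected probe is averaged in.

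PTGS2, the inducible cyclooxygenase that makes the prostaglandin precursor PGH2, was read from 10 spots of 1 probe on each array. Its gene spans 186640923 to 186650054 of chromosome 1, minus strand. The processed signals were 783 and 1336 in TIA1 RIP 1 and 2 and 269 in total RNA 1, where all 10 spots were well above background, and 8.39 in total RNA 2, where none was. On the scaled log2 values TIA1 RIP stood at -0.95 and 0.07 and total RNA at -1.41 and -3.06, with no overlap, also when total RNA 2 is taken at its lowest signal well above background. The limma log2 ratio was 1.79 ± 0.92 (SE, 2 arrays against 2; adjusted p = 0.776), and it was 0.66 after normexp correction, 0.82 with the floor and 0.97 to 2.62 leaving out 1 array.

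VEGFA, which encodes the growth factor that drives vessel sprouting, was detected by both of its probes on all arrays, and the probes disagreed. The gene spans 43737921 to 43754224 of chromosome 6, plus strand, and has many splice forms, and the probes are listed under different ones. Probe A_23_P70398 gave scaled log2 signals of 1.71 and 2.05 in TIA1 RIP and 2.11 and 4.22 in total RNA, lower in TIA1 RIP in all 4 pairs of arrays. Probe A_24_P12401 gave 1.20 and 1.31 in TIA1 RIP and 0.12 and 0.40 in total RNA, higher in TIA1 RIP in all 4 pairs. Averaged, the limma log2 ratio was -0.14 ± 0.83 (SE, 2 arrays against 2; adjusted p = 0.970). With the brighter probe alone it was -1.28, and under other scalings it lay on the other side of 0, at 0.07 after quantile normalization and 0.06 with the 75th percentile of the detected probes.

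IL6, a cytokine that signals through the gp130 receptor chain, was higher on TIA1 RIP 1 than on TIA1 RIP 2. The processed signals were 1251 and 167 in TIA1 RIP 1 and 2 and 217 in total RNA 1, and 9.26 in total RNA 2, not well above background. On the scaled log2 values TIA1 RIP stood at -0.28 and -2.92 and total RNA at -1.72 and -2.92, the last a bound, and TIA1 RIP 2 lay below total RNA 1. The limma log2 ratio was 0.72 ± 1.09 (SE, 2 arrays against 2; adjusted p = 0.875). Without TIA1 RIP 1 it was -0.61, so its direction rests on that array, and with the floor it was -0.18.

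IL1A, IL1B and CSF2 were bright on both arrays numbered 1 and not well above background on both arrays numbered 2. IL1A and IL1B, both made by stressed keratinocytes and acting on the same receptor, are neighbours on chromosome 2, minus strand, with 45.3 kb between them, and each was read from 10 spots an array. The IL1A processed signal was 4920 in TIA1 RIP 1 and 1804 in total RNA 1, with all 10 spots well above background, and 71.7 in TIA1 RIP 2 and 7.31 in total RNA 2, with none. The IL1B processed signal was 6117 in TIA1 RIP 1, 1852 in total RNA 1, 72.4 in TIA1 RIP 2 and 7.45 in total RNA 2, with the same pattern of detection. CSF2, which encodes the myeloid growth factor GM-CSF, gave 3699 in TIA1 RIP 1, 522 in total RNA 1, 95.5 in TIA1 RIP 2 and 7.68 in total RNA 2, from 1 spot an array.

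For these 3 genes the gap between the TIA1 RIP arrays exceeded that between TIA1 RIP 1 and total RNA 1. The gap between the total RNA arrays did so for IL1A and IL1B, while for CSF2 the bound does not settle it. Against the lowest signal well above background on TIA1 RIP 2, or the probe's own where that was higher, the scaled signal of TIA1 RIP 1 was at least 34.3-fold higher for IL1B, at least 27.6-fold higher for IL1A and at least 20.7-fold higher for CSF2. In total RNA, array 1 was at least 5.62-fold higher than array 2 for IL1B, at least 5.48-fold higher for IL1A and at least 1.59-fold higher for CSF2. Detection on both arrays numbered 1 and on neither numbered 2 was found for 3 of the 14 probes and for 1.80% of all probes.

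Between the arrays numbered 1, where IL1A, IL1B and CSF2 could be measured in both groups, TIA1 RIP was higher than total RNA by 0.36 on the scaled log2 values for IL1A, by 0.64 for IL1B and by 1.74 for CSF2. Relative to GAPDH these differences were 1.54, 1.82 and 2.92. They compare 1 array with 1 array and have no replicate. With the arrays numbered 2 no ratio could be formed, since both values are bounds.

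TNF, the cytokine whose AU-rich element is a known target of TIA1, was near the detection limit. Its processed signals were 91.2 and 412 in TIA1 RIP 1 and 2 and 125 and 28.8 in total RNA 1 and 2. It was well above background in TIA1 RIP 2 and total RNA 1 only, and was not tested. Between those arrays the scaled log2 signal was higher in TIA1 RIP 2 by 0.89. TIA1 RIP 1 lay below total RNA 1 by at least 2.00-fold.

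**Figure D3:**
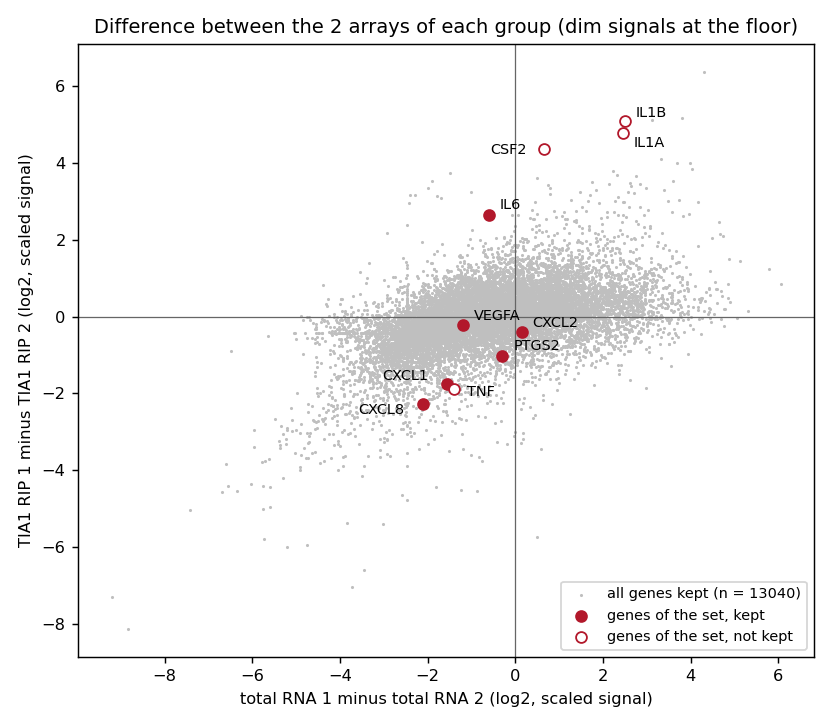
Log2 difference between total RNA 1 and 2 (x axis) and between TIA1 RIP 1 and 2 (y axis) of the scaled signals, with signals below the lowest one well above background on an array set to that signal, for the 13040 genes kept (grey) and the 10 genes (red, open where not kept). IL1B, IL1A and CSF2 lie at the top right with differences of at least 5.10, 4.79 and 4.37 in TIA1 RIP. CXCL8, TNF, CXCL1, PTGS2 and VEGFA lie below 0 on both axes. For CXCL8, TNF and PTGS2 the x position comes from an undetected signal on total RNA 2, and its direction is not known.

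The set therefore did not vary as 1 block between the arrays numbered 1 and 2. Among the tested genes, IL6 was more than 4-fold higher in TIA1 RIP 1 than in TIA1 RIP 2, as were 1.18% of the genes kept, and CXCL8 was more than 4-fold lower, as were 2.72%. CXCL1 and PTGS2 were also lower in TIA1 RIP 1, by 1.74 and 1.02 on the log2 scale, whereas VEGFA differed by 0.23. In total RNA, CXCL1 and VEGFA were lower on array 1 by 1.55 and 1.19. The median of total RNA 1 minus total RNA 2 over the probes detected on either was -0.93, with dim signals at the lowest one well above background. For GAPDH and ACTB this difference was -1.96 and -1.97. For PTGS2, IL6, CXCL8 and 1 CXCL2 probe total RNA 2 has only bounds, and the direction is not known for PTGS2, IL6 and CXCL8.

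Enrichment was next expressed relative to GAPDH, the glycolytic enzyme mRNA that the study used as its non-target reference, with a limit of 2.5-fold. The GAPDH probe gave processed signals of 135771 and 131367 in TIA1 RIP and 145089 and 55429 in total RNA, and its log2 ratio was -2.06 on the scaled values, so every gene is shifted upward by that amount against GAPDH. All 6 tested genes lay more than 2.5-fold above GAPDH on the group means, as did 72.4% of the genes kept, so passing this limit does not set them apart. The log2 enrichment was 3.85 for PTGS2, 3.84 for CXCL8, 3.41 for CXCL2, 3.16 for CXCL1, 2.78 for IL6 and 1.92 for VEGFA, with limma SEs of 1.42, 1.21, 1.22, 0.85, 1.59 and 0.71 in the same order. The values of PTGS2, CXCL8, IL6 and 1 CXCL2 probe rest on undetected signals on total RNA 2. With such signals set to the lowest one well above background (floor), all 6 still lay past the limit, as did 70.0% of genes, and the log2 enrichment was 3.16 for CXCL1, 2.96 for CXCL2, 2.88 for PTGS2, 2.69 for CXCL8, 1.92 for VEGFA and 1.88 for IL6, so the order of the genes depends on this choice. The median of the 6 was 3.29 as measured and 2.79 with the floor, beside 2.02 and 1.82 over all genes kept, and since genes of the set could enter through the TIA1 RIP arrays alone this is a description only.

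No adjusted p passed 0.05 for these enrichments: the limma values were 0.221 for CXCL8, CXCL1, CXCL2, PTGS2 and VEGFA and 0.249 for IL6. Without total RNA 1 the limma adjusted p was between 0.00022 (PTGS2) and 0.0074 (VEGFA) for all 6, with total RNA 2 left as a lone array assumed to vary like TIA1 RIP, but 73.1% of all genes passed there with them. Without total RNA 2 it was between 0.069 (CXCL1) and 0.403 (IL6). Before adjustment, 5 of the 6 (all but IL6) had a limma p under 0.05 together with an enrichment past the limit, as did 19.5% of the genes kept. On the scaled values without the reference, limma called 0.00% of genes higher in TIA1 RIP after adjustment, and 144 were higher and 524 lower at an unadjusted p under 0.05. With the floor, CXCL2 and PTGS2 were 2 of the 6 with both TIA1 RIP values above both total RNA values on that scale, against 15.7% of genes. For CXCL2 this held for the mean of its probes and for neither probe alone. With the median of all genes as the reference in place of GAPDH, CXCL8, CXCL2 and PTGS2 lay above 2.5-fold, as did 12.5% of genes, and all 3 rest on undetected signals on total RNA 2.

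Each total RNA array was also used alone. Against total RNA 1, 5 of the 6 lay past 2.5-fold relative to GAPDH, against 42.3% of genes, and the exception was IL6. The folds of the TIA1 RIP mean over total RNA 1 were 7.74 for CXCL1, 6.77 for CXCL8, 4.13 for PTGS2, 3.73 for CXCL2, 2.89 for VEGFA and 2.30 for IL6. Against total RNA 2 all 6 lay past the limit, against 77.5% of genes, or 76.7% with the floor, with folds of 10.3 for CXCL1 and 4.93 for VEGFA, both measured there. CXCL8, PTGS2, IL6 and 1 CXCL2 probe were not well above background on total RNA 2 and have only bounds against it.

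In all 4 pairs of arrays, CXCL8, CXCL1, CXCL2, PTGS2 and VEGFA lay more than 2.5-fold above GAPDH, 5 of the 6 tested genes against 26.2% of the genes kept, or 25% with the floor. CXCL8, IL6, PTGS2 and 1 of the 2 CXCL2 probes entered the test through the TIA1 RIP arrays alone, so this count and those above are a description only. With bounds in place of the undetected signals, CXCL8 was at least 3.01-fold and PTGS2 at least 9.92-fold above GAPDH in both pairs with total RNA 2. CXCL1 passed with each of its probes, with folds from 3.54 to 18.8. For VEGFA the call came from 1 probe: A_24_P12401 gave 4.49-fold to 15.4-fold over the pairs and A_23_P70398 gave 1.56-fold to 1.90-fold. For CXCL2, A_24_P257416 passed in all pairs, from 4.38-fold to 16.0-fold, and A_23_P315364 stood at 1.77-fold in TIA1 RIP 2 against total RNA 1. Against total RNA 1, IL6 stood at 0.854-fold in TIA1 RIP 2 and at 6.17-fold in TIA1 RIP 1. Against total RNA 2 it has only bounds, at least 2.19-fold in TIA1 RIP 2 and at least 15.8-fold in TIA1 RIP 1.

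**Figure D4:**
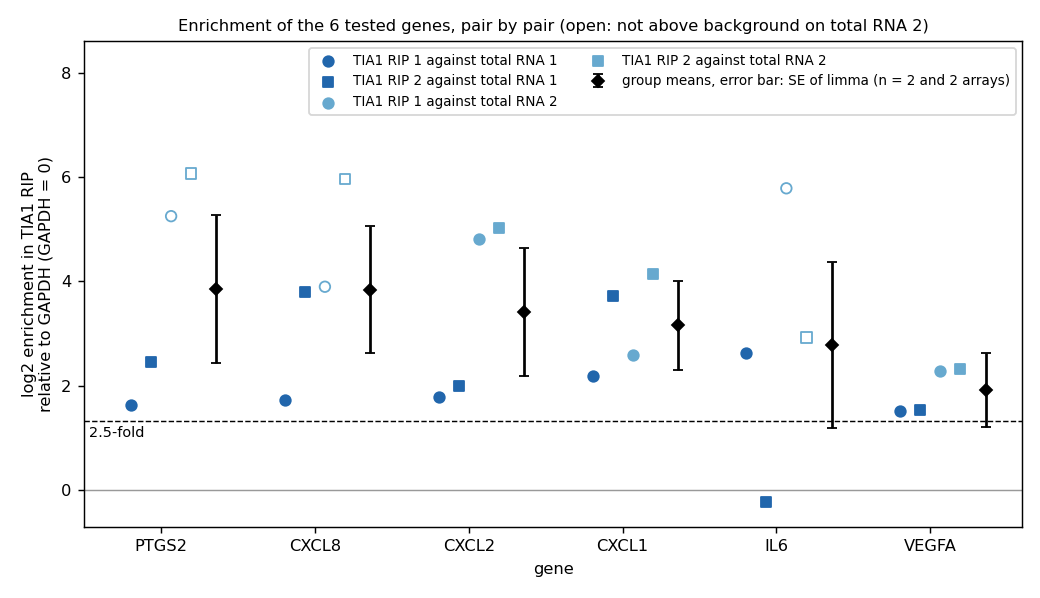
Log2 enrichment in TIA1 RIP relative to GAPDH (y axis) of the 6 tested genes (x axis), for each pair of arrays and for the group means. Dark blue points are against total RNA 1 and light blue points against total RNA 2. Light blue points are open where no probe of the gene was well above background on total RNA 2. The filled CXCL2 points against total RNA 2 average in 1 undetected probe. Black points are the group means with the SE of the limma fit (2 arrays against 2). All drawn points except that of IL6 in TIA1 RIP 2 against total RNA 1 lie above the dashed 2.5-fold line. For the same TIA1 RIP array, the drawn points against total RNA 2 lie higher for every gene. Open points rest on undetected signals. With bounds in their place, IL6 in TIA1 RIP 2 against total RNA 2 was at least 2.19-fold, which does not settle the limit. CXCL8 was at least 3.01-fold (TIA1 RIP 1) and 12.6-fold (TIA1 RIP 2) there. Against total RNA 1 it was 3.31-fold and 13.8-fold, so its order is not known.

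The partners of these genes were examined through 4 lists, whose counts stand beside 72.4% of all genes past 2.5-fold on the group means and 42.3% against total RNA 1 alone. Of 16 other ligands of the same families, 10 were kept, 8 of them past 2.5-fold above GAPDH and 5 against total RNA 1 alone, and none passed the adjusted limma test in either direction. Among those detected on all 4 arrays, the lymphangiogenic factor VEGFC had a log2 enrichment over GAPDH of 2.90 and the interleukin IL18 one of 2.83, while PGF, a VEGFA relative that binds the receptor FLT1, had 0.64 and VEGFB 1.02. The values of VEGFC and IL18 rest on total RNA 2: against total RNA 1 alone they were 0.38 and 0.77, and against total RNA 2 alone 5.41 and 4.88. Of 20 receptors and decoys, 10 were kept, 9 of them past 2.5-fold and 7 against total RNA 1 alone, and none passed the adjusted test. IL6ST, the gp130 chain used by IL6, stood at 2.57 (0.38 against total RNA 1 alone and 4.76 against total RNA 2 alone), PTGER4, a receptor for prostaglandin E2, at 2.47 and IL6R at 1.56. CXCR2 and the VEGFA receptor KDR were not detected on any array.

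Of 8 enzymes that make prostaglandins or process cytokines, 7 were kept and 6 lay past 2.5-fold relative to GAPDH on the group means, but 2 against total RNA 1 alone. ADAM17, the protease that releases TNF from the membrane, had a log2 enrichment of 3.02 (1.82 against total RNA 1 alone), and the prostaglandin E synthases PTGES3 and PTGES2 had 2.12 and 0.71. Of 12 genes of the NF-kB pathway, 10 were kept, 8 lay past 2.5-fold on the group means and 1 against total RNA 1 alone. NFKBIA, which encodes the inhibitor that holds NF-kB in the cytoplasm and is itself an early target of it, stood at 1.89, RELA at 1.90 and RELB at 0.09. The list medians were 2.59 for the ligands, 1.97 for the receptors, 2.55 for the enzymes and 1.89 for the NF-kB genes, beside 2.02 over all genes kept.

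**Figure D5:**
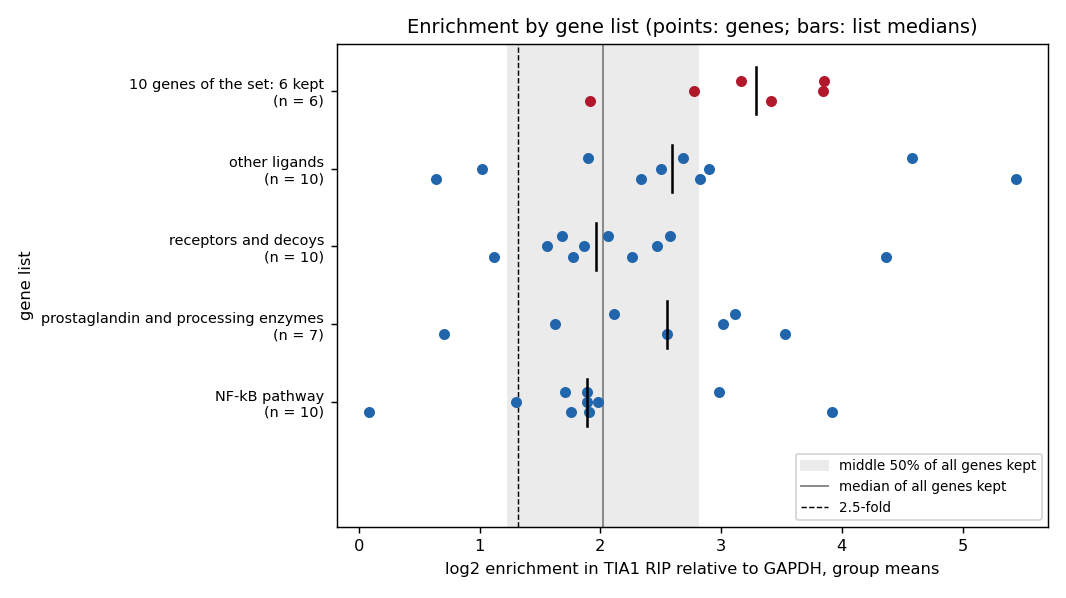
Log2 enrichment in TIA1 RIP relative to GAPDH on the group means (x axis) for the 6 tested genes (red) and the kept genes of 4 pathway lists (blue, rows), with the list medians as black bars and the median and middle 50% of all genes kept in grey. The list medians run from 1.89 to 2.59 and the median of the 6 genes, 3 of which are undetected on total RNA 2, is 3.29.

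The labelled cell type was checked with markers. All 8 squamous and epithelial markers (KRT5, KRT6A, KRT14, KRT17, TP63, CDH1, EPCAM and DSG3) were detected on all 4 arrays. Of the leukocyte markers, 3 were kept (PTPRC, CD14 and CD68), CD3E was not detected on any array, and LYZ had no probe named here. Of the 5 fibroblast and endothelial markers, COL1A1 and VWF were kept and COL1A2, PDGFRB and PECAM1 were not detected on any array. The summed processed signal of the 3 kept leukocyte markers was 16658 and 7415 in TIA1 RIP 1 and 2 and 5475 and 615 in total RNA 1 and 2. On the scaled values CD68 was higher and PTPRC and CD14 were lower on the arrays numbered 1 in both groups. The summed signal of the squamous markers was 697714 and 620363 in TIA1 RIP and 395937 and 61334 in total RNA. Both sums are unscaled and carry the brightness of the arrays, whose 75th percentile was 1514 on TIA1 RIP 1 and 69.9 on total RNA 2. They do not compare cell content between arrays. CD68 was the brightest of the 3 leukocyte markers on every array, with a scaled log2 signal of 3.35 in TIA1 RIP 1 beside -1.08 for CD14 and -2.16 for PTPRC. The part of other cells, or of culture state, in the gap between the arrays was not tested, and in such bulk samples fewer cells of a type and less RNA per cell cannot be told apart.

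Finally, the nonamer shared by 8 of the 10 genes was set against all genes. The 1015 kept genes with at least 1 nonamer in the 3′ UTR had a median log2 ratio (TIA1 RIP over total RNA) of 0.41 on the scaled values, and the 10485 genes without it had one of -0.0046. Against total RNA 1 alone the medians were 0.09 and 0.07, and against total RNA 2 alone 0.63 and -0.21, so the gap was present against 1 of the 2 input arrays. The 79 genes with 3 or more nonamers had a median of 0.15. Genes with the nonamer also had longer 3′ UTRs, with a median of 2976 bases against 1074, and a lower GC content of the transcript, with a median of 43.7% against 50.6%. The part of length and base composition in the gap was not tested.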

How the data were processed

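The authors hybridised Cy3-labelled RNA of KYSE180, 0.2 µg an array and 2 samples a group, to Agilent arrays, all on 1 slide and read in 1 scan. They deposited Feature Extraction 10.7.1.1 output, whose processed signal is a background-subtracted linear intensity, not normalized between arrays, with other columns of spot flags used here as filters. Spots flagged as uneven or deviant (299 to 382 an array) were left out. Log2 values were computed from the deposited intensity, scaled to each array's 75th percentile, and averaged over the spots of a probe and the kept probes of a gene (20100 probes, 13040 genes). Symbols came from RefSeq and GENCODE tables for 34510 of 50599 probes. limma 3.58.1 in R 4.3.3 (lmFit, eBayes, all 4 arrays, no block) gave p-values with Benjamini-Hochberg adjustment over all genes kept, threshold 0.05, on scaled values and on values minus GAPDH. The fit was tested on simulated data.

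The text names the 10 genes, GAPDH, markers, genes of the lists detected on all 4 arrays (at most the 3 highest and 3 lowest by ratio) and the 3 nearest profiles, except a single marker that is not reported here. Genes and lists were chosen with earlier results of these data known. Alternatives covered background correction, scaling, detection filter, probe choice, reference gene (ACTB or the median), fold, block and each array left out, and a floor on dim signals was added after seeing the data. An at-least fold divides the measured scaled signal by the lowest signal well above background on the dim array, or by the probe's own where higher.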

Additional observations from a re-analysis of the deposited data

How the results depend on the processing

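No gene passed the adjusted limma threshold on the scaled values in either direction under background correction, scaling, detection filter, probe choice or floor. With the replicate number as a replicate block, 57 genes were higher and 299 lower by limma, none of the 10 genes among them; same-numbered arrays deviated together from their group means (r = 0.453 over genes, 2 pairs), but nothing states that a number marks a shared batch. Leaving out 1 array gave 0 to 1849 genes higher and 0 to 2052 lower, the high counts without total RNA 1, where total RNA 2 stands alone and is assumed to vary like TIA1 RIP. The count of genes above GAPDH was 9445, and 4394 after quantile normalization, 5933 with only probes detected on all arrays, 1636 against the median of all genes and 5511 to 10107 leaving out 1 array. Of the tested genes of the set, 3 (of 3 tested) passed with only probes detected on all arrays, beside 5933 of 9237 genes. Against the median 3 of 6 passed, beside 12.5% of genes. Leaving out 1 array, 5 to 6 of 6 lay past the fold, beside 42.3% to 77.5% of genes. VEGFA fell below 2.5-fold after quantile normalization and with the brighter probe and did not pass a limit of 4-fold, and IL6 fell below 2.5-fold without total RNA 2. The median log2 ratio of all genes moved from -0.04 to 0.26 after quantile normalization, 0.16 with the 75th percentile of detected probes, -0.35 with probes detected on all arrays, -0.57 without the filter and -0.24 with the floor.

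Of 238 values of single genes under alternatives, 23 changed sign. Log2 ratios that did were IL6 with the floor (-0.18), IL1A after quantile normalization (0.38), IL1B after quantile normalization (0.50) and with the percentile of detected probes (0.065), VEGFA after normexp (0.085), quantile normalization (0.072) and the percentile of detected probes (0.055), and CSF2 with the floor (-0.11). Against the median of all genes, the enrichment of TNF was -0.65 and that of VEGFA -0.11. Leaving out 1 array, the log2 ratio ran from -0.61 to 2.04 for IL6, -3.19 to 2.66 for IL1A, -3.21 to 2.94 for IL1B, -2.16 to 0.27 for TNF, -0.74 to 0.45 for VEGFA and -1.92 to 3.11 for CSF2, and the enrichment ran from -1.48 to 5.07 for IL1A and -1.36 to 5.21 for IL1B. Without total RNA 1 the log2 ratio of PTGS2 was 2.62, and it rests on a signal not well above background on total RNA 2. The cause of these changes was not tested. All 4 arrays share 1 slide and 1 scan, so neither could be a block.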

Other observations

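The genes whose scaled signals were most like those of a member over the 4 arrays were ranked by Euclidean distance after centring each gene on its own mean, among 9238 genes detected on all arrays. For CXCL1 the nearest were UGT1A8 at a distance of 0.06, LEF1 at 0.17 and NIPSNAP1 at 0.21. For CXCL2 they were TRIM4, DNASE1L1 and SLC35F3 at 0.16 to 0.23, and for VEGFA they were ICAM1 and EDEM1 at 0.04 and MME at 0.06.

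Chosen after their values were seen, 2 further chemokines of the ligand list stood out. CXCL3, the closest relative of CXCL1 and CXCL2, had scaled log2 signals of -0.52 and 1.11 in TIA1 RIP and -2.59 and -1.86 in total RNA, where total RNA 2 was not well above background. CCL20, which draws cells through the receptor CCR6, had -2.93 and 1.85 in TIA1 RIP and was not well above background in either total RNA sample, so no enrichment is given. Like CXCL8 and CXCL1, both were higher in TIA1 RIP 2 than in TIA1 RIP 1, by 1.62 for CXCL3 and by 4.78 for CCL20. Neither was detected on all 4 arrays, and neither passed the adjusted limma test on the scaled values.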
